A study of Mus musculus with 12 samples.

Results

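The 10 genes described here are Fos, Fosb, Jun, Junb, Egr1, Atf3, Ier2, Dusp1, Nr4a1 and Zfp36, taken by mouse symbol from the 54838 genes of the count tables. All 10 were found and all 10 passed the filter on low counts, which kept 31109 genes. RNA was sequenced from the spinal cord of mice at postnatal day 60, in 12 libraries that form 4 groups of 3. Control mice had the genotype Olig1+/+;Tet1fl/fl and Tet1 mutant mice the genotype Olig1cre/+;Tet1fl/fl, so that both carried the floxed Tet1 allele, which lets Cre remove part of the gene, and only the mutant carried Cre, expressed from the Olig1 locus of oligodendroglial cells. Each genotype was studied at 4 days post lesion (4dpl), once lysolecithin (LPC), which strips myelin from axons, had been injected into the ventrolateral white matter, and in unlesioned tissue from the opposite side of the cord.

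Immediate early genes are switched on within minutes of a stimulus, by kinases that act on transcription factors already present in the cell, and need no new protein synthesis. They include the subunits of AP-1, a dimer of Fos and Jun proteins, zinc finger and nuclear receptor transcription factors, and proteins that shut the response down again. In brain and spinal cord the same genes are known to be switched on by enzymatic and mechanical dissociation of living tissue, microglia being a well-known case. The tissue of this study was cut up, digested with papain and DNase, triturated and passed over a Percoll density gradient before the cells were frozen and RNA was extracted, without sorting, and no library was made from intact tissue. The levels in the animal and those added during preparation therefore cannot be told apart.

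Total counts per library were between 34805086 and 67251544. Oligodendrocyte markers were abundant in every library, but the labelled enrichment was not pure: the summed level of 5 neutrophil markers ranged from 17400 to 95720 CPM (counts divided by the TMM-scaled library size), that of 5 erythroid markers from 12100 to 99960 CPM, and that of 7 oligodendrocyte markers from 14490 to 68390 CPM. Tet1 was counted at 9.94 to 21.5 CPM and did not separate the genotypes at the level of the whole gene, so the genotype is that of the labels throughout. In a bulk preparation fewer cells of a type and less RNA per cell cannot be told apart. Nothing in the labels says which libraries came from one animal, so p-values measure the spread between these libraries.

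The stretches of DNA before the start of 4 of the genes are shown first, because they hold elements of kinds known to act on early response genes. Windows of 250 bases before the start site were available from RefSeq (GRCm38.p6) for 8 of the 10 genes. They were searched on both strands for TGACG, the core of the cyclic AMP response element bound by CREB and ATF proteins, and for the CArG box bound by serum response factor. Elements more than 250 bases before the start were not searched, so a missing match does not mean that a gene lacks the element. Capitals mark these elements, and each sequence runs 5′ to 3′ on the strand of the gene and ends at the base before the RefSeq start. That start lies inside the longer Ensembl span given below for Dusp1, Nr4a1 and Zfp36, whose windows are thus partly or wholly within that span, and also for Atf3 and Fosb, whose windows are not shown. The windows are at chr12:85473640-85473889 on the plus strand for Fos, chr17:26508473-26508722 on the minus strand for Dusp1, chr15:101266596-101266845 on the plus strand for Nr4a1 and chr7:28379229-28379478 on the minus strand for Zfp36.
Fos: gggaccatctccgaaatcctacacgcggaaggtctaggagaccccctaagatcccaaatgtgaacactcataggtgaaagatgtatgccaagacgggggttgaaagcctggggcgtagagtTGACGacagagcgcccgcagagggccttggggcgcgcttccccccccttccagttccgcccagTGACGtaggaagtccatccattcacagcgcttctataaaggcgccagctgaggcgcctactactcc
Dusp1: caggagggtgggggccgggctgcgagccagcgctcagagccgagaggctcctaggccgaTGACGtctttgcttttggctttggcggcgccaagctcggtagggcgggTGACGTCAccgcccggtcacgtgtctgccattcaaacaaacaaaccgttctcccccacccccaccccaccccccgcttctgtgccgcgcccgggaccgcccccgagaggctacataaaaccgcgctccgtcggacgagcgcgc
Nr4a1: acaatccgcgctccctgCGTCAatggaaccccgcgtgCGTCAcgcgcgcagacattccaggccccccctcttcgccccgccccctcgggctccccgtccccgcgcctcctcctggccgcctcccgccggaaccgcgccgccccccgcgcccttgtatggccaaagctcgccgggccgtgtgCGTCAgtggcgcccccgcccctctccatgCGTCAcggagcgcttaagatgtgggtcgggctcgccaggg
Zfp36: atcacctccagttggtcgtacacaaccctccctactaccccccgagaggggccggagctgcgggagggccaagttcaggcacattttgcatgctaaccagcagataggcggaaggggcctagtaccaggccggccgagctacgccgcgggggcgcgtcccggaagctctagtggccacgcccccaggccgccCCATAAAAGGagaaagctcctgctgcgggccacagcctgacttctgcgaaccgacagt

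The core TGACG was present in 6 of the 8 windows, those of Fos, Fosb, Junb, Atf3, Dusp1 and Nr4a1, and in 17.8% of the 32851 promoter windows of the same length in the genome. In Fos it began 129 and 66 bases before the start, the nearer one ahead of a TATA box (TATAAA) that began 33 bases before it. Nr4a1 held 4 copies, all on the opposite strand, and Dusp1 held the full palindrome TGACGTCA from 143 bases before its start, an element found in 1.55% of all windows, which contains the core on both strands. Zfp36 held a CArG box that began 58 bases before its start, an element found in 1.47% of windows. The binding site of EGR proteins, GCGNGGGCG, was present in the windows of Fosb, Nr4a1 and Zfp36 and in 4.7% of all windows, and TGANTCA, to which AP-1 binds, in none of the 8 and in 6.75% of all. A match of letters is not a bound site, and no binding was measured in the libraries described here.

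All 10 genes were abundant in every library, unlesioned ones included. Together they took between 0.866% and 1.22% of all counts of a library. The level per kilobase of exon (RPKM after TMM scaling) allows the genes to be compared with each other. The order of the median RPKM over the 12 libraries was Fos 1076, Junb 646.6, Dusp1 552, Ier2 428, Jun 338, Zfp36 310, Egr1 295, Atf3 237, Nr4a1 124 and Fosb 32.6. Fos lay between places 30 and 39 of the 31109 genes ranked per length in each library, and Dusp1 between places 45 and 79. Fosb, the lowest, ranked between places 1201 and 2052. The library ranges of Junb and Dusp1 overlapped (530.9 to 982 and 382 to 880 RPKM), as did those of Jun, Zfp36, Egr1 and Atf3, so the order of these neighbours does not exceed the spread between libraries, whereas the lowest Fos value, 737, lay above every value of the genes other than Junb and Dusp1.

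**Figure D1:**
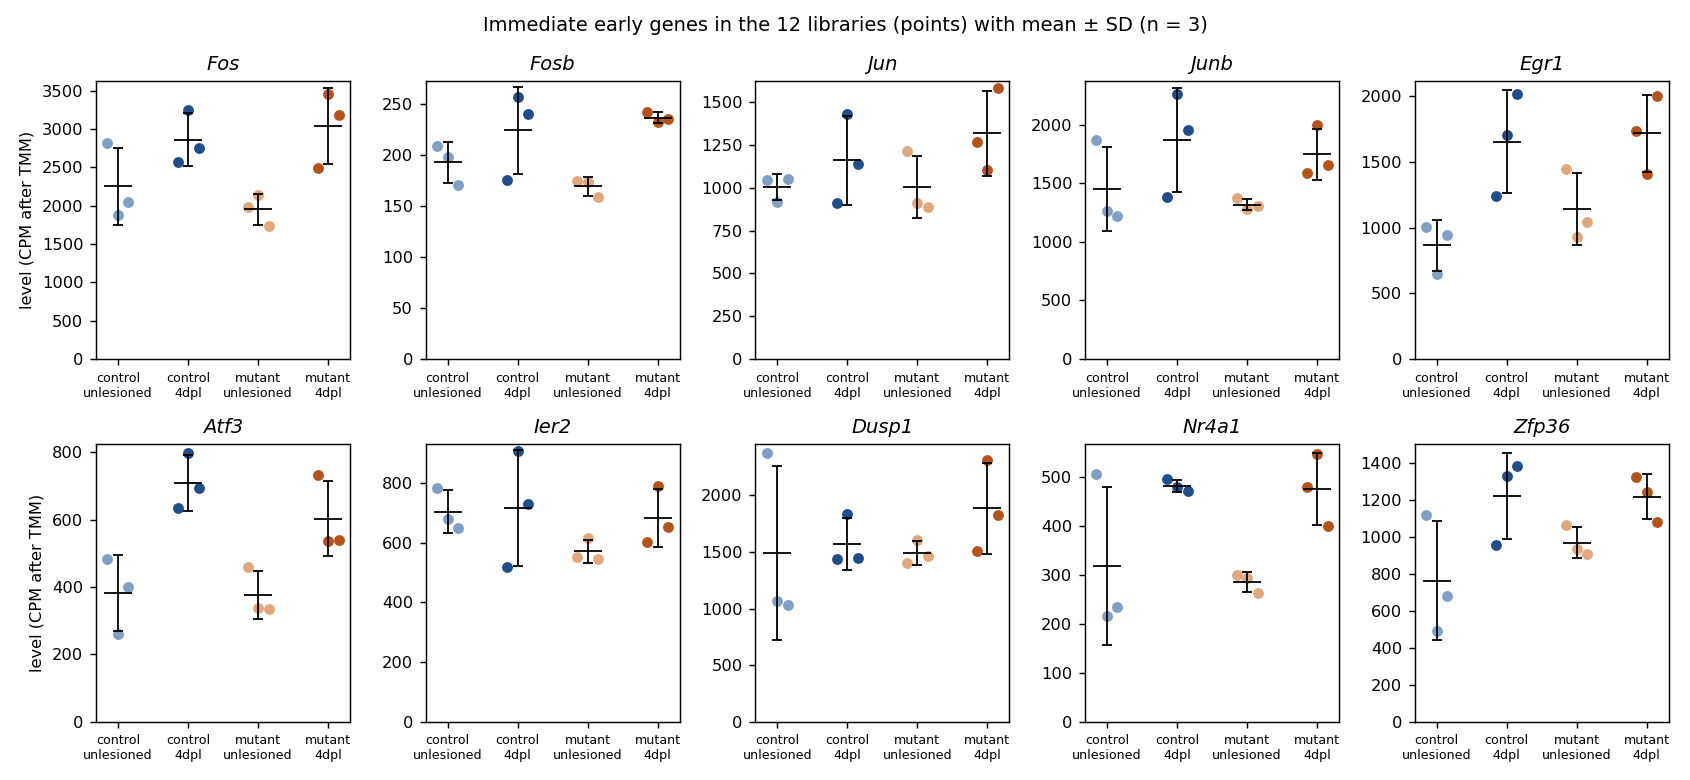
Level of each of the 10 genes (CPM after TMM scaling, vertical axis from 0) in the 12 libraries, by group (horizontal axis). Points are libraries, and bars give the mean and SD of 3 libraries. In the unlesioned control group 1 library stands above the other 2 for Dusp1 and Nr4a1, with 2374 and 505.9 CPM.

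Among the AP-1 subunits, Fos (chromosome 12, 85473890 to 85477273, GRCm38) is the inducible partner of the Jun proteins. It was at 2818, 1885 and 2051 CPM in the unlesioned control libraries and at 2576, 3243 and 2754 CPM in control libraries at 4dpl. In the mutant it was at 1984, 2136 and 1734 CPM unlesioned and at 2488, 3452 and 3178 CPM at 4dpl. The mutant groups did not overlap, whereas in the control the unlesioned replicate 1 lay within the range of the lesioned libraries. The log2 fold change of Fos, 4dpl against unlesioned, was 0.34 ± 0.29 (SE) in control and 0.64 ± 0.29 in mutant libraries, and neither passed the threshold (edgeR adjusted p = 0.406 and 0.143).

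Fosb (chromosome 7, 19302696 to 19310051), which takes the place of Fos in the dimer, was at 209, 198 and 171 CPM in unlesioned control libraries and at 176, 257 and 240 CPM at 4dpl. In the mutant it was at 175, 174 and 159 CPM unlesioned and at 242.5, 232 and 236 CPM at 4dpl, without overlap. Its replicates were the closest of the 10 genes, with a within-group SD of 0.17 on the log2 scale. Jun (chromosome 4, 95049034 to 95052222), the partner of Fos, had overlapping groups in both genotypes, with means of 1004 ± 76.5 and 1161 ± 260.0 CPM (SD, n = 3) in the control and 1006 ± 181 and 1318 ± 246 CPM (SD, n = 3) in the mutant, unlesioned and at 4dpl. Junb (chromosome 8, 84974484 to 84978718), which can replace Jun, was at 1867, 1262 and 1222 CPM in unlesioned control and 1385, 2260 and 1954 CPM in control at 4dpl. In the mutant Junb was at 1375, 1276 and 1304 CPM unlesioned and 1591, 1996 and 1654 CPM at 4dpl, again without overlap in the mutant and with overlap in the control. The 3' end of Junb overlaps Prdx2 on the other strand, which had at most 15384 counts in a library where Junb had at least 57557, and the strand setting of the counting was not stated in the sources used here.

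Atf3 (chromosome 1, 191170296 to 191218039), a stress-induced member of the ATF family, is widely used as a marker of injured cells. It was at 482.5, 261 and 401.5 CPM in the unlesioned control libraries and at 633, 799 and 693 CPM in the control at 4dpl. In the mutant it was at 460, 336.5 and 336 CPM unlesioned and at 732, 538 and 541 CPM at 4dpl. Atf3 was the one gene of the 10 whose 6 lesioned libraries all lay above its 6 unlesioned ones, a pattern that 7.44% of all genes tested showed, and 24.1% of those at least as abundant as Fosb. On library totals without TMM 0 of the 10 genes showed it, against 0.411% of all genes. For Atf3 the separation then held in the control but not in the mutant, where it was at 549, 392 and 426 CPM unlesioned and at 682, 434 and 467 CPM at 4dpl.

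Egr1 (chromosome 18, 34859823 to 34864984), a zinc finger transcription factor induced by MAP kinase signalling, was at 1006, 644 and 945 CPM in the unlesioned control and at 1238, 1703 and 2016 CPM in the control at 4dpl. In the mutant it was at 1448, 930.2 and 1042 CPM unlesioned and at 1735, 1410 and 2000 CPM at 4dpl. The control groups did not overlap and the mutant groups did, by 1 library on each side. Nr4a1 (chromosome 15, 101254269 to 101274795), an orphan nuclear receptor induced in activated myeloid cells and neurons, was at 506, 217 and 235 CPM in the unlesioned control and at 496, 480 and 471 CPM in the control at 4dpl. In the mutant Nr4a1 was at 300, 294 and 262.5 CPM unlesioned and at 480, 547 and 399.5 CPM at 4dpl. Here too the unlesioned control replicate 1 reached the lesioned level, and the mutant groups did not overlap. Ier2 (chromosome 8, 84661331 to 84662852), a small nuclear protein of the early response, changed least after TMM scaling over all genes. Its levels were 704 ± 71.2 and 717 ± 195 CPM (SD, n = 3) in the control, unlesioned and at 4dpl. In the mutant they were 571 ± 37.6 and 682 ± 98.3 CPM (SD, n = 3). With TMM computed on abundant genes, its log2 change averaged over genotypes was instead the lowest of the set, at -0.45. The highest of the set was then 0.23. On library totals Ier2 was lower at 4dpl in the mutant, without overlap.

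Both inhibitors of the response were as abundant as its transcription factors. Dusp1 (chromosome 17, 26505590 to 26508519), the phosphatase that switches off MAP kinases, was at 2374, 1066 and 1031 CPM in the unlesioned control and at 1434, 1833 and 1445 CPM in the control at 4dpl. In the mutant it was at 1402, 1607 and 1465 CPM unlesioned and at 1513, 2316 and 1828 CPM at 4dpl. The highest Dusp1 value of the study thus came from an unlesioned library. Zfp36 (chromosome 7, 28376784 to 28380253), the protein tristetraprolin that marks AU-rich messenger RNAs such as that of TNF for decay, was at 1121, 491 and 680 CPM in the unlesioned control and at 958, 1329 and 1384 CPM in the control at 4dpl. In the mutant Zfp36 was at 1066, 936 and 910 CPM unlesioned and at 1327, 1246 and 1085 CPM at 4dpl, and those groups did not overlap.

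The first comparison asks how far the lesion moved these genes. After TMM scaling the estimate was above 0 for all 10 genes in each genotype, but it fell below 0 for some of them under other scalings, as described further on. In the control 0 of the 10 passed the threshold of p under 0.01 and adjusted p under 0.05 (edgeR), where 5.12% of all genes were called higher and 5.01% lower. An unadjusted p under 0.05 was reached by 3 genes. It was also reached by 10584 of the 31109 genes tested, and by 296 of the 689 genes at least as abundant as Fosb. DESeq2 called 2 of the 10 and limma-voom 4, where over all genes they called 2563 and 4836 higher. The largest values were those of Egr1, 0.93 ± 0.31 (SE, adjusted p = 0.0638), and Atf3, 0.89 ± 0.28 (SE, adjusted p = 0.0556), and the lowest those of Ier2, 0.03 ± 0.26 (SE), and Dusp1, 0.08 ± 0.34 (SE). Without the unlesioned control replicate 1, edgeR called 4 genes in the control, Egr1, Atf3, Nr4a1 and Zfp36. Over all genes the calls of higher levels then rose as well, from 1592 to 4124 of the 33892 genes tested. The median of the 10 changes moved from 0.35 to 0.61, and that of genes at least as abundant as Fosb from 0.45 to 0.72. Libraries of the control groups did not overlap for Egr1 and Atf3, against 16.5% of all genes and 44% of those at least as abundant as Fosb. On library totals Atf3 alone stayed separate in the control, as did 8.51% of all genes.

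In the mutant edgeR likewise called 0 of the 10, where it called 0.0225% of all genes higher and 0.113% lower. There 4 genes had an unadjusted p under 0.05. So had 10503 of all genes tested and 305 of the 689 genes at least as abundant as Fosb. DESeq2 called 0 of the 10 and limma-voom 4, where over all genes they called 1170 and 3495 higher. The values ran from 0.26 ± 0.26 (SE) for Ier2 to 0.74 ± 0.31 (SE, adjusted p = 0.118) for Nr4a1, with a median of 0.45. Libraries did not overlap for 6 genes, Fos, Fosb, Junb, Atf3, Nr4a1 and Zfp36, against 18.8% of all genes and 46.7% of the 689 genes at least as abundant as Fosb. On library totals without TMM all 6 overlapped, 0 of the 10 genes being higher without overlap against 1.94% of all genes, and the one gene of the 10 without overlap was Ier2, lower at 4dpl, as were 33.7% of all genes. The 2 comparisons do not share libraries, but both depend on how lesioned and unlesioned libraries were scaled to each other.

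Averaged over the genotypes, which uses 6 libraries against 6, edgeR called 3 of the 10 genes higher and 0 lower, where 14.2% of all genes were called higher and 18.6% lower. Atf3 rose by 0.79 ± 0.20 (SE, adjusted p = 0.00981), a fold change of 1.72 with a 95% interval of 1.28 to 2.31. Egr1 rose by 0.76 ± 0.22 (SE, adjusted p = 0.0164), a fold change of 1.70 (1.22 to 2.35). Nr4a1 rose by 0.67 ± 0.22 (SE, adjusted p = 0.0264), a fold change of 1.59 (1.15 to 2.19). These 3 kept their sign under every scaling tried, but none was called when the libraries were scaled on their totals alone. Fos, with 0.49 ± 0.21 (SE, adjusted p = 0.0696), Fosb, with 0.35 ± 0.15 (SE, adjusted p = 0.0763), and Zfp36, with 0.50 ± 0.22 (SE, adjusted p = 0.0796), had intervals above 0 and did not pass. Junb, Jun, Dusp1 and Ier2 had values of 0.38, 0.30, 0.21 and 0.14. Leaving out the control 4dpl replicate 3 or the mutant unlesioned replicate 3 ended the call of Egr1, and the call of Nr4a1 was lost in 9 of the 12 fits that left out a library, all but those without control unlesioned replicate 1, control 4dpl replicate 3 or mutant 4dpl replicate 3.

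**Figure D2:**
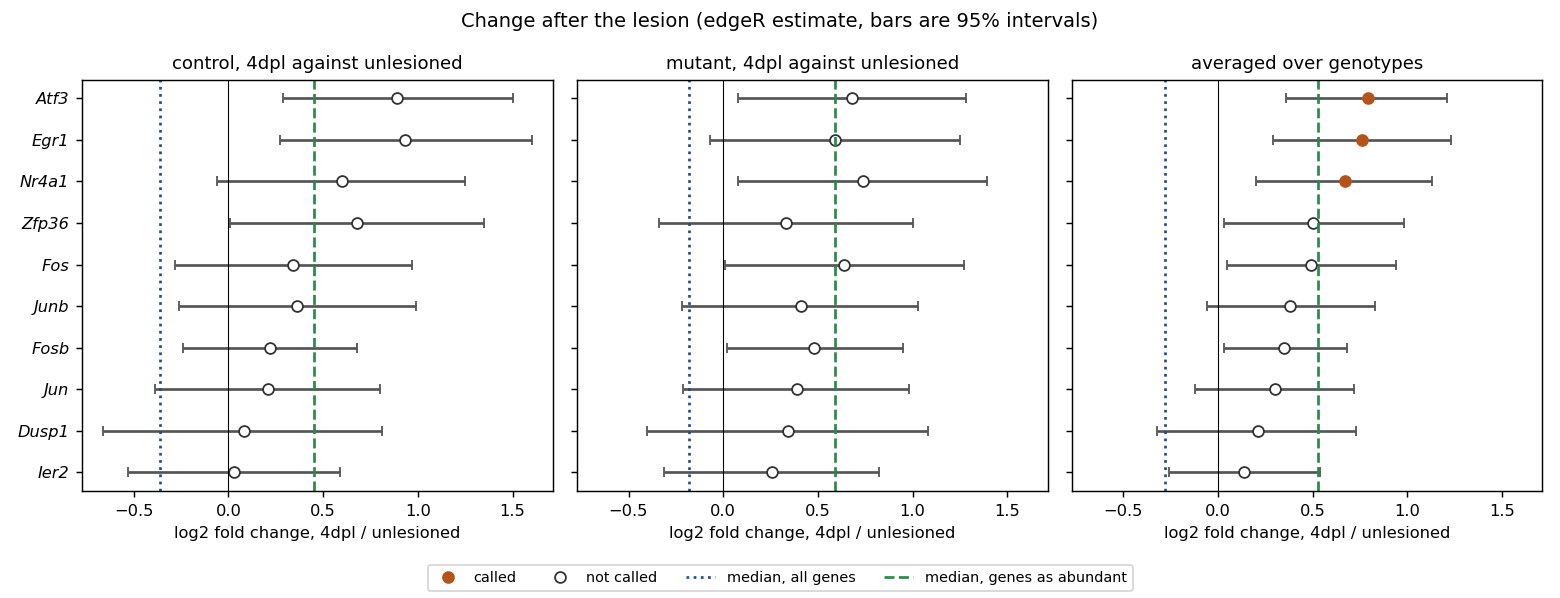
Log2 fold change, 4dpl against unlesioned (horizontal axis), of each gene (vertical axis) for each genotype and averaged over both; bars are 95% intervals of the edgeR fit, filled points passed the threshold, the dotted line is the median of all genes tested and the dashed line the median of the genes at least as abundant. Only Atf3, Egr1 and Nr4a1 are filled, in the averaged comparison, and the 10 genes scatter around the dashed line.

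The median change of these genes lay above that of all genes tested, which was -0.28, but not above that of genes of like abundance. The gap depended on the filter. With at least 10 counts in every library the medians were 0.15 for the 10 genes and 0.00 for the 17528 genes tested. The 10 genes then ran from -0.15 to 0.51. Of the 689 genes with a mean level at least that of Fosb (7.68 on the log2 CPM scale), 279, or 40.5%, were called higher in the averaged comparison and 2 lower, with a median change of 0.53, against 3 of 10 and a median of 0.44 for the 10 genes. Among the 679 others of that group, 27.2% had a higher change than Atf3, 54.3% a higher change than Fos and 77.8% a higher change than Ier2. The abundance cut was chosen after the values had been seen, and no test was made of the difference.

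The size and sign of the changes depended on the scaling. TMM factors were between 0.806 and 0.932 in the lesioned libraries and between 0.881 and 1.302 in the unlesioned ones, of which control unlesioned replicate 1 had the lowest. Scaled on library totals alone, the median change of the 10 genes was 0.04 and 5 were above 0, and the median of all genes moved from -0.28 to -0.69. With TMM computed on the 689 abundant genes, it was -0.13 for the 10 genes, with 3 above 0, and -0.87 for all genes. When genes needed at least 10 counts in every library before TMM, it was 0.15 with 8 above 0. For the 17528 genes then tested, which lack those of low counts, it was 0.00. Under RLE size factors it was 0.34 with 10 above 0. A change of scaling moves all genes of a library alike, so it hardly alters the distance between the medians of the 10 genes and of the abundant genes, whereas leaving out a library does not: in the averaged comparison without control 4dpl replicate 1 the medians were 0.52 and 0.55, and without control 4dpl replicate 2 they were 0.40 and 0.56. As raw shares of a library's counts, the 10 genes summed to between 0.866% and 1.10% in the unlesioned control, 0.880% and 1.22% in the control at 4dpl, 1.07% and 1.19% in the unlesioned mutant and 1.10% and 1.14% in the mutant at 4dpl, so the groups overlapped in both genotypes.

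**Figure D3:**
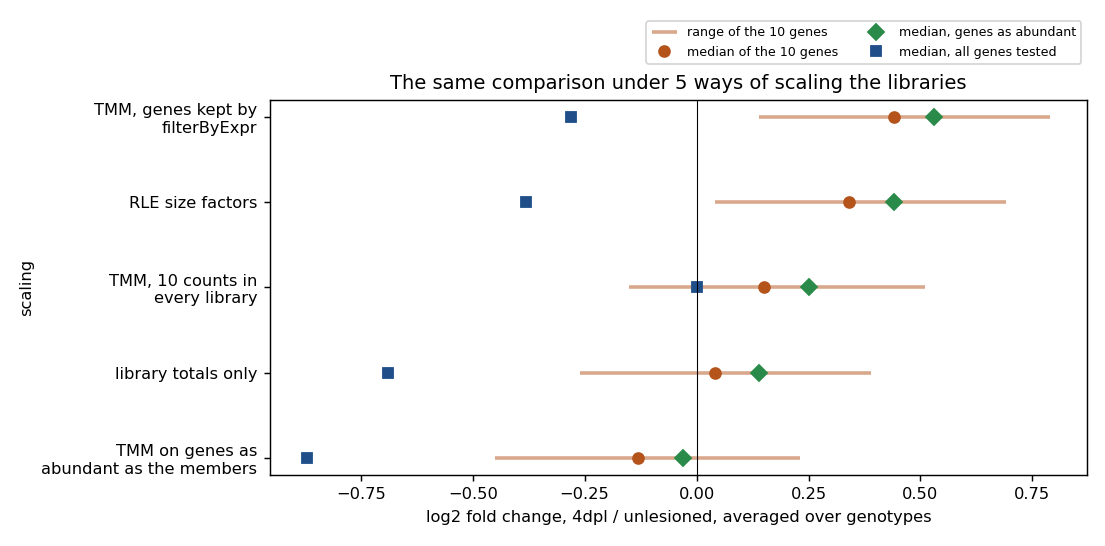
Log2 fold change, 4dpl against unlesioned, averaged over genotypes (horizontal axis), under 5 ways of scaling the libraries (vertical axis). Lines span the 10 genes, circles are their median, diamonds the median of the 689 genes at least as abundant and squares the median of all genes tested. The setting with 10 counts in every library tested 17528 genes and the others 31109. The circle moves from 0.44 to -0.13 and the diamond moves with it.

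The second comparison asks whether the libraries labelled mutant differed from the control. In unlesioned tissue the log2 differences, mutant against control, ran from -0.30 ± 0.26 (SE) for Ier2 to 0.40 ± 0.31 (SE) for Egr1, and at 4dpl from -0.23 ± 0.28 (SE) for Atf3 to 0.26 ± 0.34 (SE) for Dusp1. EdgeR called 0 of the 10 genes and 0 of all genes in both comparisons, and none of the 10 had an unadjusted p under 0.05. Over all genes DESeq2 called 13 higher and 19 lower in unlesioned tissue and 193 and 25 at 4dpl, and limma-voom 34 higher at 4dpl, none of them among the 10, and with voom 2 had an unadjusted p under 0.05 in unlesioned tissue. The 95% intervals at 4dpl reached a fold change of 0.563 at the low end for Atf3 and of 2 at the high end for Dusp1, so the data leave room for differences of that size. Ier2 was lower in all 3 unlesioned mutant libraries, at 554, 614 and 545 CPM, than in the unlesioned control, at 784, 679 and 648.5 CPM. That pattern was found in 6.28% of all genes, and it was not seen on library totals, where Ier2 was at 661, 715 and 692 CPM in the mutant and at 690.2, 772 and 843 CPM in the control. On those totals 0 of the 10 genes were lower in the mutant without overlap, against 2.08% of all genes, and Zfp36 was higher, as were 6.74% of all genes. The difference of Ier2 had an adjusted p of 1 (edgeR). Without the unlesioned control replicate 1 the highest difference in unlesioned tissue moved from 0.40 to 0.73.

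The change after the lesion did not differ detectably between genotypes. The interaction ran from -0.35 ± 0.44 (SE) for Egr1 and Zfp36 to 0.30 ± 0.41 (SE) for Fos, and edgeR, DESeq2 and limma-voom each called 0 of the 10. None of the 10 had an unadjusted p under 0.05 with edgeR, and 1 had with voom. Without the unlesioned control replicate 1 the lowest interaction moved to -0.74 and the median of the 10 genes from 0.16 to -0.22. The interval for Fos went from a fold of 0.664 to 2.27, so 3 libraries per group leave a difference of that size undetected.

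Within a group, the 10 genes tended to be high or low together. The deviations of log2 CPM from the group mean had a median Pearson correlation of 0.52 over the 45 pairs of genes (12 libraries, 44 pairs above 0), against 0.25 over all pairs of the 689 abundant genes. The highest were those of Fos with Dusp1 (0.89), Junb with Ier2 (0.88) and Dusp1 with Nr4a1 (0.87), and the lowest that of Jun with Nr4a1 (-0.03). The points share each library's scaling and depth, and the values are a description. Scaled on library totals the medians were 0.42 and 0.07, and without the unlesioned control replicate 1 they were 0.34 and 0.06, so this library carries part of the correlation. After TMM scaling all 10 genes were above the group mean in this library, by 0.39 on average on the log2 scale. The values were 0.79 for Dusp1, 0.78 for Nr4a1 and 0.64 for Zfp36. Its TMM factor was 0.881, against 1.138 and 1.302 in the other libraries of the group, which raises all of its genes alike. On library totals alone its Dusp1 was at 2090 CPM against 1211 and 1340 in the other 2 libraries of the group. Its Fos, at 2480 CPM, lay between their 2143 and 2666. On those totals its Fosb (184.2 CPM), Jun (918.7 CPM) and Ier2 (690.2 CPM) were the lowest of the group. Its Junb, Nr4a1 and Zfp36 were the highest, and its Egr1 and Atf3 lay between the others. With TMM scaling control 4dpl replicate 1 and control unlesioned replicate 2 were the other way round. Each had 1 gene above the group mean, and their averages were -0.26 and -0.28. Mutant unlesioned replicate 3 had 0 genes above it, with an average of -0.10.

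**Figure D4:**
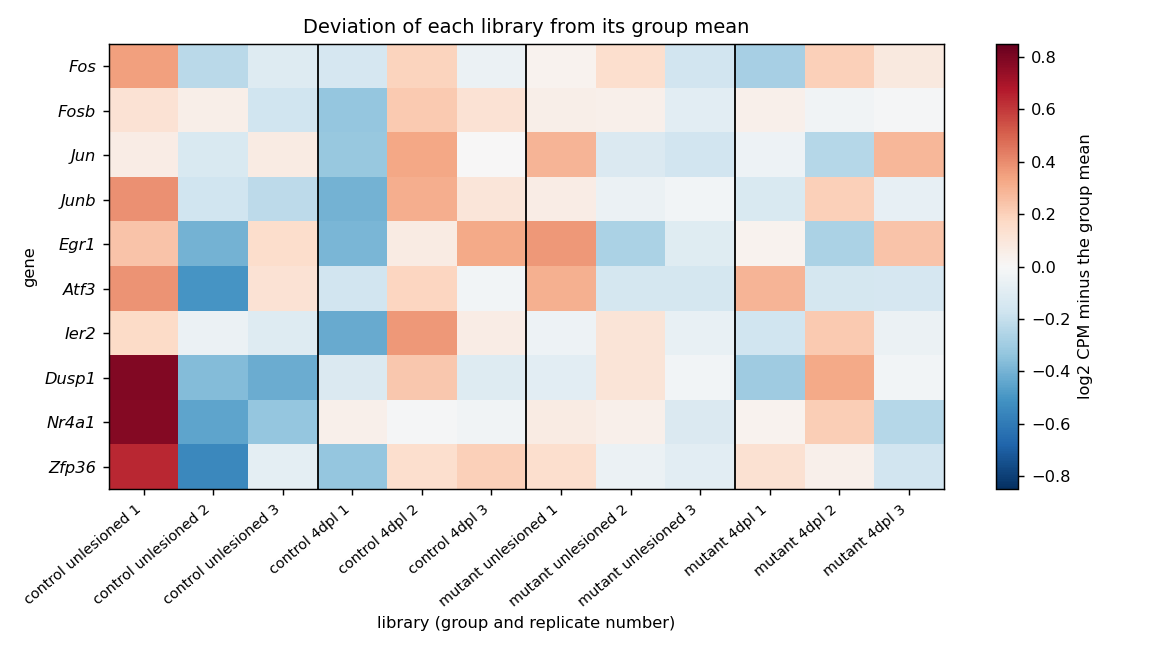
Log2 CPM of each gene (rows) minus the mean of its group, in each library (columns, 3 per group). Red is above and blue below the group mean. With TMM scaling the first column, control unlesioned replicate 1, is above the mean for all 10 genes, most of all for Dusp1 and Nr4a1. On library totals its Fosb, Jun and Ier2 are the lowest of the group.

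These library differences went with those of other gene lists to different degrees. The list correlations were not recomputed on library totals or without control unlesioned replicate 1. No value for abundant genes in general was set beside them. Over the 12 libraries, the mean deviation of the 10 genes correlated at 0.86 with that of 27 other feedback and early response genes, at 0.89 with that of 14 upstream kinases and factors and at 0.73 with that of 10 genes that microglia switch on when taken out of the tissue. It was lower for the closest relatives, 0.53 with 10 other AP-1 and ATF genes and 0.43 with 10 other EGR, NR4A and KLF genes. The correlation was 0.51 with monocyte and macrophage markers and 0.40 with microglia markers. It was 0.03 with oligodendrocyte markers, 0.04 with neutrophil markers and 0.05 with heat shock genes. It was -0.49 with endothelial and mural markers and -0.77 with the 2 Schwann cell markers tested. The other cell type lists lay between -0.31 and 0.15. Among 10321 other genes with a mean log2 CPM of at least 3, those most like the 10 genes were Slc25a45 (0.95), Ppp1r10 (0.95), Acadm (0.94), Trim14 (0.94) and Mbd4 (0.93), with 12 libraries behind each value.

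The rest of the pathway was described with lists of neighbouring genes, and the counts below are those of the averaged lesion comparison with TMM scaling. All of the counts of genes called higher fell to 0 or 1 under scaling on library totals. Among 10 other AP-1 and ATF genes none was called higher and 1 lower, with a median of 0.10. That gene was Jund, a Jun protein expressed without stimulus, which was at 81.0, 69.4 and 45.7 CPM in the unlesioned control and at 10.6, 19.0 and 19.1 CPM in the control at 4dpl, but at 55.2, 70.0 and 56.9 CPM in the unlesioned mutant and at 52.7, 61.0 and 116.5 CPM in the mutant at 4dpl. Its interaction was 2.35 ± 0.46 (SE, adjusted p = 1, edgeR), so it did not pass over all genes. Batf had 0.40 and Jdp2 -0.88 in the averaged comparison, and neither was called. On library totals 0 of these 10 AP-1 and ATF genes were called higher and 2 lower, with a median of -0.30. With TMM on abundant genes 0 were called higher and 3 lower, with a median of -0.48.

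Among 10 other EGR, NR4A and KLF genes 2 were called higher and 1 lower, with a median of 0.40, and leaving out 1 library gave between 1 (without control unlesioned replicate 3, mutant unlesioned replicate 3 or mutant 4dpl replicate 1) and 4 (without control unlesioned replicate 1) higher. Egr2, the close relative of Egr1, rose by 0.95 ± 0.24 (SE, adjusted p = 0.00905), and Klf10 by 0.83 ± 0.25 (SE, adjusted p = 0.0198). Klf2, a factor of resting endothelial and blood cells, fell by 0.81 on the log2 scale (adjusted p = 0.0218). Its level was 315, 227 and 116 CPM in the unlesioned control and 59.0, 89.3 and 68.8 CPM in the control at 4dpl, without overlap, while the mutant groups overlapped. Egr4 did not exceed 2.5 CPM in any library. With TMM on abundant genes 0 of these 10 EGR, NR4A and KLF genes were called higher and 1 lower, with a median of -0.16.

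Among 27 other feedback and early response genes 7 were called higher and 2 lower, with a median of 0.32. The balance turned to 0 higher and 4 lower on library totals and to 0 and 8, with a median of -0.28, with TMM on abundant genes, and leaving out 1 library gave between 3 (without mutant unlesioned replicate 3 or mutant 4dpl replicate 1) and 11 (without control unlesioned replicate 1) higher. The count was 4 without control unlesioned replicate 2 or 3, control 4dpl replicate 2 or mutant unlesioned replicate 2. Myc rose by 0.80 ± 0.18 (SE, adjusted p = 0.00635), Dusp6, the phosphatase specific for ERK, by 0.69 ± 0.18 (SE, adjusted p = 0.0122) and the kinase Sgk1 reached a fold change of 2.11 (adjusted p = 0.0129). Socs3, Tnfaip3, Ier3 and Nfkbiz, feedback genes of cytokine and NF-κB signalling, were the others called higher. Cebpd and Dusp5 were the pair called lower, each with -0.97. Zfp36l2 and Dusp2 had the smallest p-values of this list for the genotype difference at 4dpl, with 1.23 (adjusted p = 0.343) and 1.66 (adjusted p = 0.355), and were not called.

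Of 14 upstream kinases and factors 4 were called higher and none lower, with a median of 0.33. On library totals it was 0 higher and 2 lower, and with TMM on abundant genes 0 and 4, with a median of -0.24, while leaving out 1 library gave between 2 (without control unlesioned replicate 2 or mutant unlesioned replicate 2 or 3) and 6 (without control unlesioned replicate 1) higher. The genes called with TMM scaling were the ternary complex factor Elk3 (0.95), the MEF2 factors Mef2a (0.94) and Mef2c (0.82), and Creb1 (0.53), which turned to -0.04 with TMM on abundant genes. Srf, which binds the CArG box, was at 25.1, 13.6 and 8.68 CPM in the unlesioned control, 5.65, 7.20 and 6.47 CPM in the control at 4dpl, 11.1, 23.7 and 15.6 CPM in the unlesioned mutant and 15.6, 20.6 and 27.3 CPM in the mutant at 4dpl. Its difference between genotypes at 4dpl was 1.72 ± 0.38 (SE, adjusted p = 0.214), and that of Mapk14, the kinase p38α, was 1.04 ± 0.33 (SE, adjusted p = 0.413).

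Of 9 heat shock genes that dissociation is known to raise, 6 were called higher and none lower, with a median of 0.52. Leaving out 1 library gave between 2 (without control 4dpl replicate 1 or mutant unlesioned replicate 3) and 7 (without mutant unlesioned replicate 1) higher, with 3 without control 4dpl replicate 2 or mutant unlesioned replicate 2. Hspb1 rose by 1.38 ± 0.26 (SE, adjusted p = 0.00394) from low levels, at most 2.85 CPM unlesioned and at least 3.0 CPM at 4dpl. Hspe1 rose by 0.75 (adjusted p = 0.00687) and Hspa8 by 0.74 (adjusted p = 0.0185). Hspa1a and Dnaja1, called higher with 0.52 and 0.51, turned to -0.05 and -0.08 with TMM on abundant genes. With that scaling 0 of the 9 genes were called and their median was -0.05. At 4dpl all 9 were lower in the mutant than in the control by estimate, with a median of -0.48 and none called, Hspa1b having -0.74 (adjusted p = 0.457).

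Of the 10 genes that microglia are known to switch on ex vivo, 5 were called higher and none lower, with a median of 0.80. Id2 rose by 0.78 ± 0.17 (SE, adjusted p = 0.0061), the chemokine Ccl2 by 1.05 ± 0.23 (SE, adjusted p = 0.00622) and Ccl3 by 0.82 ± 0.22 (SE, adjusted p = 0.0115), and Tnf and Cd83 were called too. This list was the one whose median lay above that of the abundant genes, 0.53. Its count of genes called higher was between 4 and 7 when 1 library was left out. With TMM on abundant genes the count was 0 and the median 0.22. The markers of microglia rose at the same time, 6 of 6 called higher with a median of 1.13, and none of them was at 0 in any library. Their summed level was between 2834 and 5519 CPM in the unlesioned control and between 8852 and 15010 CPM in the control at 4dpl, and between 2911 and 9303 CPM and between 8818 and 13190 CPM in the mutant. The part of these cells in the levels of the 10 genes was not tested.

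**Figure D5:**
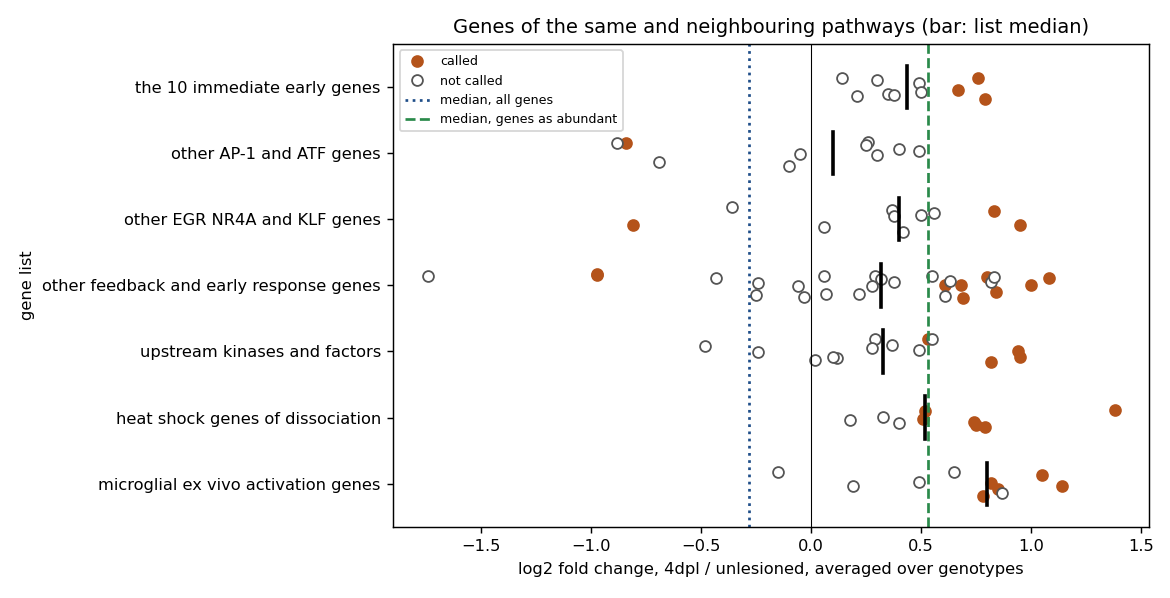
Log2 fold change, 4dpl against unlesioned, averaged over genotypes (horizontal axis), of every gene of the 7 lists (vertical axis). Filled points passed the threshold, bars are list medians, the dotted line is the median of all genes tested and the dashed line that of the 689 abundant genes; the bar of the microglial ex vivo list, 0.80, lies to the right of the dashed line.

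Other marker sums differed between some groups as well. All marker sums are given after TMM scaling and were not recomputed on library totals, so their separation may depend on the scaling. That of 7 oligodendrocyte markers was between 16210 and 20470 CPM in the unlesioned control and between 23270 and 34180 CPM in the control at 4dpl, and in the mutant between 14490 and 27960 CPM and between 25380 and 68390 CPM, with 2 of 7 called higher in the averaged comparison. That of 5 neutrophil markers was between 37800 and 80080 CPM and between 23300 and 28600 CPM in the control, and overlapped in the mutant, between 23810 and 95720 CPM and between 17400 and 87340 CPM. That of 5 erythroid markers was between 34190 and 99960 CPM and between 12100 and 40860 CPM in the control and between 18230 and 42730 CPM and between 27360 and 44340 CPM in the mutant, and none of either list was called. Astrocyte markers summed to 64.3 to 104 CPM in the unlesioned control and 166 to 310 CPM in the control at 4dpl. In the mutant these sums were 120 to 150 and 197 to 318 CPM. Progenitor markers summed to 49.3 to 70.9 and 134 to 292 CPM in the control, and overlapped in the mutant. Averaged over genotypes, 1 astrocyte, 3 progenitor and 2 monocyte and macrophage markers were called higher, and 2 Schwann cell markers lower. Endothelial and mural markers, of vessels that the gradient discards, summed to at most 44.0 CPM in any library. No gene of the 10 marks one of these cell types, and their share in each was not measured.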

How the data were processed

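RNA from Percoll-enriched spinal cord cells was sequenced in 12 libraries. The authors aligned the reads, counted those on exons of Ensembl genes (GRCm38) with featureCounts and deposited raw counts, which are not normalized. The paper's methods name BWA for alignment, whereas the submitters' processing notes name STAR, mm10 and DESeq2 1.2.5.

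Counts were analysed with edgeR 4.0.16 in R 4.3.3. Genes were kept by filterByExpr, libraries scaled by TMM, and all 12 libraries entered 1 quasi-likelihood model that estimates the 4 group means. Genes were called at p under 0.01 and a Benjamini-Hochberg adjusted p under 0.05 over all 31109 genes. Standard errors came from the change and the F statistic. Log2 CPM used a prior count of 2. The lowest count of any of the 10 genes was 7013, so the number of libraries, not depth, limits the precision.

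The 10 genes and all lists were chosen with earlier results of these data known. The text names the 10 genes, the 3 genes of each list with the smallest p for the averaged lesion effect and the 2 for the genotypes at 4dpl, and the 5 genes most correlated with the 10; other called genes were named after their values were seen. Marker lists are given by their sums, by counts of genes called or by correlations, and the sums of some lists are not given.

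The fits were tested on simulated data with known changes. Alternatives were DESeq2 1.42.0, limma-voom 3.58.1 with sample weights, RLE factors, 2 other filters, a replicate block, an adjusted p under 0.10, fits to the 2 groups compared and leaving out each library. Added after the data were seen were other settings (library totals, TMM on abundant genes, the newer quasi-likelihood option of edgeR). Sorted-cell and hydroxymethylation data were not analysed here.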

Additional observations from a re-analysis of the deposited data

How the results depend on the processing

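Counts of the 10 genes called after the lesion moved with the tool and scaling. In the control, where edgeR called 0, the count was 2 with DESeq2, 4 with limma-voom, 1 without a filter, 1 with the replicate block, 2 at an adjusted p under 0.10 and 2 with the newer edgeR option. In the mutant it was 4 with voom. In the averaged comparison it was 7 with voom and 6 at an adjusted p under 0.10. It was 0 with 10 counts in every library, on library totals and with TMM on abundant genes. Over all 31109 genes, 4423 higher and 5771 lower became 797 and 8883 on library totals. They became 482 and 11030 with TMM on abundant genes. With 10 counts in every library 1848 were called higher and 1743 lower, but only 17528 genes were tested. Leaving out 1 library gave 0 to 4 calls in the control, 0 to 1 in the mutant and 1 (without mutant unlesioned replicate 3) to 5 (without control unlesioned replicate 1) averaged. Genotype and interaction counts stayed at 0 under all alternatives run. Same-numbered libraries were treated as sharing only a number, since not every pair of deviations correlated above 0.1: over all genes kept they correlated at 0.19, 0.05 and 0.19 in the control and -0.03, 0.07 and -0.07 in the mutant, and over genes with a mean log2 CPM of at least 3 at 0.34, 0.26 and 0.31 and at 0.28, 0.51 and 0.07. In that second set each control library correlated best with its own number, a hint from the data and not the design, and mutant libraries did not all do so. The replicate block changed the call of Atf3 in the control alone. The paper took unlesioned tissue from the opposite side of the cords, so some libraries may share a mouse. It numbers the lesioned control and the unlesioned mutant libraries differently from the labels used here. The same-number pairs and the replicate block may therefore not join libraries of one mouse. 

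Signs that turned, in the control: with TMM on abundant genes Fos -0.22, Fosb -0.38, Jun -0.39, Junb -0.19, Ier2 -0.57 and Dusp1 -0.42; on library totals Fosb -0.10, Jun -0.13, Ier2 -0.30 and Dusp1 -0.18; with 10 counts in every library Fosb -0.05, Jun -0.06, Ier2 -0.24 and Dusp1 -0.15; and Ier2 also with DESeq2 (-0.02), RLE (-0.03), the replicate block (0.00) and the fit to the 2 groups (-0.04). Leaving out 1 library gave Ier2 -0.16 to 0.24 and Dusp1 -0.12 to 0.61. In the mutant, TMM on abundant genes gave Fosb -0.09, Jun -0.16, Junb -0.17, Ier2 -0.33, Dusp1 -0.25 and Zfp36 -0.24, library totals Jun -0.09, Junb -0.08, Ier2 -0.23, Dusp1 -0.16 and Zfp36 -0.15, and 10 counts in every library Ier2 -0.06. Averaged, TMM on abundant genes gave Fos -0.08, Fosb -0.23, Jun -0.28, Junb -0.18, Ier2 -0.45, Dusp1 -0.34 and Zfp36 -0.04, library totals Fosb -0.05, Jun -0.11, Junb -0.01, Ier2 -0.26 and Dusp1 -0.17, and 10 counts in every library Ier2 -0.15 and Dusp1 -0.07. The cause was not tested.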
